A study of Mus musculus with 6 samples.

Results

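The genes described here are 35 genes of macroautophagy, taken as the rows of the deposited count table whose gene name is one of a set of initiation, membrane, conjugation, Atg8, cargo receptor and TFEB family genes. All 35 were found among the 43346 genes of the table. Macroautophagy encloses cytoplasm, aggregates or damaged organelles in a double membrane, the autophagosome, which then fuses with the lysosome, where the content is degraded. A kinase complex starts the process, a lipid kinase complex marks the membrane with phosphatidylinositol 3-phosphate (PI3P), lipid transfer proteins make it grow, and conjugating enzymes couple Atg8 proteins to it, to which cargo receptors bind. Neurons depend on basal autophagy, and mice that lack Atg5 or Atg7 in neurons lose Purkinje cells, the output neurons of the cerebellar cortex.

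RNA came from the cerebellum of mice aged 15 months, in tissue that the labels call brain and the protocol calls cerebellar. There were 3 Tmem106b-/- mice (KO), 1 female (replicate 1) and 2 males (replicates 2 and 3), and 3 Tmem106b+/+ mice (WT), also 1 female (replicate 1) and 2 males (replicates 2 and 3). TMEM106B sits in the membrane of the lysosome and the late endosome, the compartments to which autophagosomes deliver their content, and the title of the study names Purkinje cell death after its loss. How the knockout allele was made, the strain and the housing of the mice are not given in the sources used.

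Each mouse gave 1 library, with totals of 25245778 to 28584165 counts in KO mice and 29658618 to 31135185 in WT mice, and an RNA integrity number of 10 in each. Levels are given as CPM, counts scaled by a library size that the TMM method adjusts, so library totals were not made equal. Summed over all genes tested, CPM came to 980700 to 1003000 in KO mice and 991200 to 1035000 in WT mice, the highest in the WT female. Tmem106b, the check of the labels, was at 69.7, 67.9 and 62.7 CPM in KO mice, against 230, 267 and 238 CPM in WT mice, so that 27.2% of the WT level was left (log2 fold change -1.88, SE 0.08, edgeR adjusted p = 1.37e-04). Adjusted p-values come from edgeR's quasi-likelihood test, by the Benjamini-Hochberg method over all 16934 genes tested. Markers of granule cells and Purkinje cells, the defining neurons of the cerebellum, were abundant in all 6 libraries. The summed level of 8 Purkinje markers was 5794 to 6713 CPM in KO mice, against 9108 to 9896 CPM in WT mice. All 8 had a log2 fold change below 0. At an adjusted p under 0.05 edgeR called 5 of them lower, against 0.283% of all genes called in either direction. The summed level of 8 markers of activated microglia was 88.55 to 112.5 CPM in KO mice, against 32.35 to 42.11 CPM in WT mice. All 9 of their gene models were above 0 (Clec7a has 2 models), and edgeR called 6 of them higher at that threshold. Without WT replicate 2, or without WT replicate 3, edgeR called 0 of all genes tested higher and 1 lower. None of the 6 microglia calls was made in those fits, and at most 1 of the 5 Purkinje calls. Both fits held fewer libraries, and the size of the marker differences in them is not given here. The summed level of 7 choroid plexus markers ran from 1613 to 5036 CPM in KO mice, against 80.32 to 4681 CPM in WT mice. None of these markers was at 0 in the libraries, and their part in the values of the autophagy genes was not tested. In bulk tissue, fewer cells of a type and less RNA per cell cannot be told apart.

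None of the 35 autophagy genes passed the test of a difference between KO and WT mice. All 35 passed the filter on low counts, and at an adjusted p under 0.05 edgeR called 0 higher and 0 lower in KO, where it called 0.283% of all genes tested. DESeq2 called 0 of the 35 (1.37% of all genes) and limma-voom called 0 (0.301% of all genes). At an unadjusted p under 0.05, edgeR had 0 of the 35, against 8.96% of all genes. In 0 of the 35 did the 3 KO mice lie wholly above or below the 3 WT mice, which was the case for 14.1% of all genes tested. The p-values measure the spread between these mice only.

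The fitted differences were small. The median log2 fold change (KO over WT) of the 35 was -0.02, against 0.00 over all genes tested, with 13 genes above 0 and 22 below. The values ran from -0.27 for Atg101 to 0.12 for Atg16l1, and adjusted p-values from 0.689 to 0.998 in edgeR. The 95% interval of the fold change stayed within 1.5-fold in either direction for 34 of the 35 genes, against 68.6% of all genes tested. The exception was Atg101, with an interval of -0.64 to 0.10. The autophagy genes lay at a median of the 72.9th percentile of all tested genes in level per length. Their coefficient of variation, the pooled SD within genotypes over the mean of the 6 libraries, had a median of 7.65%, against 10.7% over all genes. Their summed level was 3603, 3625 and 3754 CPM in KO mice, against 3869, 3582 and 3627 CPM in WT mice, so the highest and the lowest sum both came from WT mice.

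**Figure D1:**
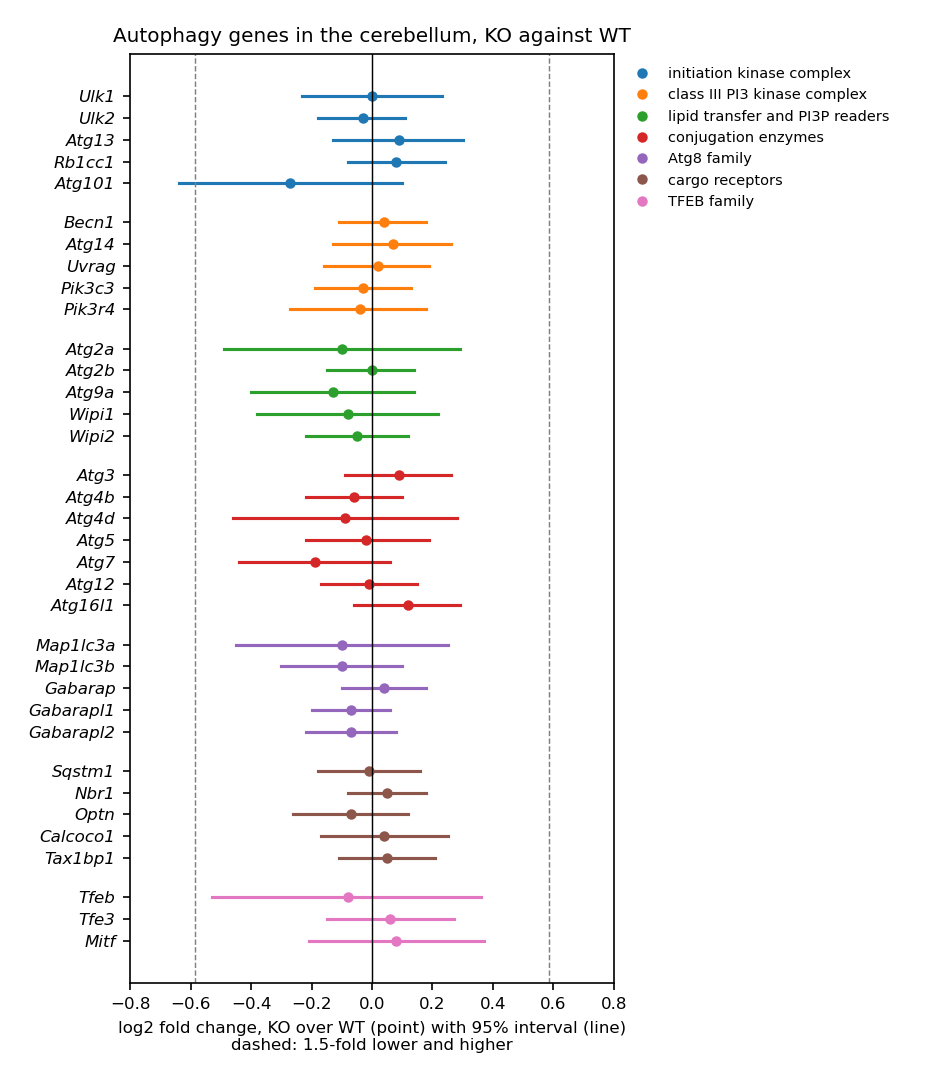
Log2 fold change of each autophagy gene, KO over WT, from edgeR (points) with its 95% interval (lines), grouped by role, and dashed lines at 1.5-fold. Every interval spans 0, and only that of Atg101 (-0.64 to 0.10) reaches past a dashed line.

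The initiation kinase complex, which receives the signals of nutrient state, had 2 of 5 genes above 0 and a median log2 fold change of 0.00. Atg13, whose protein links the ULK kinases to the rest of the complex, was at 109, 119 and 129 CPM in KO mice, against 121, 112 and 103 CPM in WT mice. The highest and the lowest of these values belonged to a KO male and a WT male, and the groups overlapped (log2 fold change 0.09, SE 0.09, 95% interval -0.13 to 0.30, edgeR adjusted p = 0.835). Atg101, whose protein binds and stabilises ATG13, spans bases 101284301 to 101290934 of chromosome 15 in mm10. It was at 9.48, 12 and 13.3 CPM in KO mice, against 15.4, 11.8 and 14.7 CPM in WT mice. Its lowest value was the KO female's and its highest the WT female's, while the males of both genotypes overlapped (log2 fold change -0.27, SE 0.16, edgeR adjusted p = 0.697). The kinase genes themselves, Ulk1 and Ulk2, had log2 fold changes of 0.00 (SE 0.10) and -0.03 (SE 0.06), and the scaffold gene Rb1cc1, also known as FIP200, 0.08 (SE 0.07).

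The class III PI3 kinase complex makes PI3P on the forming membrane. Its 5 genes had a median log2 fold change of 0.02 and values between -0.04 and 0.07. Becn1, the gene of the regulatory subunit beclin, was at 119, 107 and 104 CPM in KO mice, against 116, 102 and 104 CPM in WT mice. In both genotypes the female was the highest (log2 fold change 0.04, SE 0.06, 95% interval -0.11 to 0.18, edgeR adjusted p = 0.891). Atg14, which encodes the subunit that directs the complex to autophagosome formation, was at 31.4, 35.2 and 33.0 CPM in KO mice, against 32.4, 32.2 and 30.2 CPM in WT mice, with overlapping groups (log2 fold change 0.07, SE 0.09, 95% interval -0.13 to 0.26, edgeR adjusted p = 0.856). Uvrag, the gene of the subunit that takes the place of ATG14 in the endosomal form of the complex, was at 0.02 (SE 0.08). The lipid kinase gene Pik3c3, also known as VPS34, was at -0.03 (SE 0.07), and the gene of its regulatory subunit, Pik3r4, at -0.04 (SE 0.10).

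Among the 5 genes for lipid transfer and PI3P reading, 0 were above 0, and the median log2 fold change was -0.08. Wipi2, whose protein reads PI3P and recruits the conjugation machinery, was at 144, 154 and 163 CPM in KO mice, against 167, 156 and 154 CPM in WT mice (log2 fold change -0.05, SE 0.07, edgeR adjusted p = 0.876). Atg9a, the gene of a membrane-spanning lipid scramblase that arrives on vesicles, was at 87.7, 107 and 122 CPM in KO mice, against 124, 108 and 112 CPM in WT mice (log2 fold change -0.13, SE 0.12, 95% interval -0.40 to 0.14, edgeR adjusted p = 0.812). In both genes the KO female was the lowest of the 6 and the WT female the highest. The bridge-like lipid transfer protein genes were at -0.10 (SE 0.17) for Atg2a and 0.00 (SE 0.06) for Atg2b, and Wipi1, a second reader of PI3P, was at -0.08 (SE 0.13). Reads of Atg9a are uncertain, since the spans of a gene on the same strand and of Ankzf1 overlap its own. The counts of these 2 genes equal 61.85% and 21.35% of those of Atg9a, and reads shared between genes were not measured. No source used here gives the strand setting of the counting.

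Conjugation enzymes work like the ubiquitin cascade. ATG7 activates, ATG3 transfers, the complex of ATG12, ATG5 and ATG16L1 places Atg8 proteins on the membrane, and ATG4 proteases prepare and release them. Of the 7 genes, 2 were above 0, with a median log2 fold change of -0.02. Atg12 was at 76.0, 66.4 and 61.6 CPM in KO mice, against 73.8, 65.9 and 65.1 CPM in WT mice, with the female the highest in both genotypes (log2 fold change -0.01, SE 0.07, edgeR adjusted p = 0.983). Atg7, which had the smallest unadjusted p of the 35 genes (0.122 in edgeR), was at 20.6, 24.8 and 27.0 CPM in KO mice, against 28.4, 27.5 and 26.2 CPM in WT mice. The KO female was the lowest and the WT female the highest, and KO replicate 3 lay above WT replicate 3 (log2 fold change -0.19, SE 0.11, 95% interval -0.44 to 0.06, edgeR adjusted p = 0.689). Atg16l1 had the highest value of the 35 genes, at 0.12 (SE 0.08, edgeR adjusted p = 0.721), and Atg3 was at 0.09 (SE 0.08). Atg5 was at -0.02 (SE 0.09), and the proteases Atg4b and Atg4d at -0.06 (SE 0.07) and -0.09 (SE 0.16). Atg4b and Atg4d each overlap a gene on the other strand, so their reads are uncertain in the same way. The counts of Thap4 equal 16.64% of those of Atg4b, and the counts of Kri1 equal 104.38% of those of Atg4d.

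The Atg8 proteins are small ubiquitin-like proteins that are coupled to phosphatidylethanolamine in the autophagosome membrane and hold cargo receptors there. Before that, an ATG4 protease cuts each of them after a glycine near its end. The last 60 bases of the 5 coding sequences are shown because they hold this site, in the reference sequence of GENCODE M21 (GRCm38), 5′ to 3′, up to the stop codon. Capitals mark the last in-frame glycine codon.
Map1lc3a: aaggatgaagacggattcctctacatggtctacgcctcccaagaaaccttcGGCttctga
Map1lc3b: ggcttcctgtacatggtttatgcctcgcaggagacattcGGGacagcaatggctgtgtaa
Gabarap: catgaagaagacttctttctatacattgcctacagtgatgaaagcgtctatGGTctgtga
Gabarapl1: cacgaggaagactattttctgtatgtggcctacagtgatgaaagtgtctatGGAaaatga
Gabarapl2: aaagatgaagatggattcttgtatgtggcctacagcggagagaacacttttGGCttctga
In 4 of the 5 genes 1 codon lies between this glycine and the stop, and in Map1lc3b there are 5. The coding sequences span 354 to 378 bases and fall into a pair of LC3 genes and 3 GABARAP genes. Map1lc3a and Map1lc3b were identical at 74.7% of aligned bases, with a longest identical run of 15 bases, and Gabarap and Gabarapl1 at 74.9%, with a longest run of 17 bases. The other pairs were at 50.6% to 64.5%. These are reference sequences, and no protein was measured.

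Of the 5 Atg8 genes, 1 was above 0, with a median log2 fold change of -0.07, and none passed the test. Map1lc3a (chromosome 2, 155276297 to 155278073, mm10) was at 73.1, 97.8 and 111 CPM in KO mice, against 112, 88.4 and 99.0 CPM in WT mice. The KO female was the lowest and the WT female the highest, and the males overlapped (log2 fold change -0.10, SE 0.15, 95% interval -0.45 to 0.25, edgeR adjusted p = 0.881). Map1lc3b (chromosome 8, 121590361 to 121598760), the LC3 form most often used to mark autophagosomes, was at 208, 232 and 261 CPM in KO mice, against 259, 239 and 248 CPM in WT mice. KO mice held both the lowest and the highest value (log2 fold change -0.10, SE 0.09, 95% interval -0.30 to 0.10, edgeR adjusted p = 0.806). Its reads are uncertain, since Gm20388 on the same strand and Zcchc14 on the other overlap its span. Their counts equal 22.41% and 29.47% of those of Map1lc3b, and shared reads were not measured.

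The GABARAP genes spread less between libraries. Gabarap (chromosome 11, 69991143 to 69994951) was at 171, 147 and 151 CPM in KO mice, against 163, 143 and 149 CPM in WT mice, with the female the highest in both genotypes (log2 fold change 0.04, SE 0.06, 95% interval -0.10 to 0.18, edgeR adjusted p = 0.883). Gabarapl1 (chromosome 6, 129533200 to 129542331) was at 402, 381 and 382 CPM in KO mice, against 425, 393 and 406 CPM in WT mice. Its KO female lay above the lowest WT mouse, so the groups overlapped (log2 fold change -0.07, SE 0.06, 95% interval -0.20 to 0.06, edgeR adjusted p = 0.783). Gabarapl2 (chromosome 8, 111940703 to 111953612) was at 161, 144 and 159 CPM in KO mice, against 165, 160 and 160 CPM in WT mice, with KO replicate 2 apart from the others (log2 fold change -0.07, SE 0.07, 95% interval -0.22 to 0.08, edgeR adjusted p = 0.819).

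The makeup of the Atg8 family was taken as each gene's share of its reads per kb of gene model length. Gabarapl1 made up 45.7 ± 1.92% of the family in KO mice and 46.2 ± 0.662% in WT mice (SD, n = 3 each), the largest share in every library. Gabarap held 17.6 ± 1.54% in KO mice and 16.4 ± 0.244% in WT mice, and Map1lc3a 16.5 ± 3.18% in KO mice and 16.8 ± 1.08% in WT mice. The order of Gabarap and Map1lc3a varied between libraries, and in the KO female Gabarap held 19.3% and Map1lc3a 12.9%. Gabarapl2 held 13.8 ± 0.681% in KO mice and 13.9 ± 0.548% in WT mice. Map1lc3b held 6.44 ± 0.636% in KO mice and 6.62 ± 0.092% in WT mice, a value that depends on the length used. With the length of the first-numbered reference transcript of each gene, chosen after seeing the data, it held 15.4% in KO mice and 15.8% in WT mice, since its gene model spans 7517 bases in the table and that transcript 2532. Gabarapl1 stayed the largest with that length, at 35.7% in KO mice and 36.1% in WT mice. Shares carry no test, and the differences between genotypes were smaller than the SD over the KO mice in each of the 5 genes.

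Cargo receptors carry ubiquitin-tagged or organelle cargo to the Atg8 proteins, and 3 of the 5 were above 0, with a median log2 fold change of 0.04. Sqstm1, which encodes p62, a receptor that is itself degraded by autophagy and is also a TFEB target, lies on chromosome 11 at 50199366 to 50210827. It was at 304, 333 and 345 CPM in KO mice, against 349, 310 and 329 CPM in WT mice. The KO female was the lowest and the WT female the highest (log2 fold change -0.01, SE 0.08, 95% interval -0.18 to 0.16, edgeR adjusted p = 0.983). Optn, which encodes optineurin, a receptor for damaged mitochondria and bacteria, was at 30.8, 33.2 and 30.9 CPM in KO mice, against 30.3, 34.3 and 35.2 CPM in WT mice, and WT mice held both the lowest and the highest value (log2 fold change -0.07, SE 0.08, 95% interval -0.26 to 0.12, edgeR adjusted p = 0.844). Nbr1, a partner of p62, was at 0.05 (SE 0.06), Tax1bp1, a receptor of ubiquitin condensates, at 0.05 (SE 0.07), and Calcoco1, a receptor for the endoplasmic reticulum and Golgi, at 0.04 (SE 0.09).

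TFEB, TFE3 and MITF are the transcription factors that switch on lysosomal and autophagy genes when mTORC1, the nutrient-sensing kinase at the lysosome, is inactive. Their activity is set mainly by their location in the cell, which RNA levels do not show. Tfeb (chromosome 17, 47737030 to 47792419) was the lowest of the 35 genes, at 5.94, 7.14 and 8.94 CPM in KO mice, against 9.05, 6.46 and 7.79 CPM in WT mice. The KO female was the lowest and the WT female the highest (log2 fold change -0.08, SE 0.19, 95% interval -0.53 to 0.36, edgeR adjusted p = 0.925). Tfe3 (chromosome X, 7762560 to 7775202) was at 50.4, 52.7 and 56.3 CPM in KO mice, against 54.8, 46.2 and 51.9 CPM in WT mice (log2 fold change 0.06, SE 0.09, 95% interval -0.15 to 0.27, edgeR adjusted p = 0.877). Mitf (chromosome 6, 97807058 to 98021349) was at 20.4, 21.1 and 16.6 CPM in KO mice, against 17, 17.7 and 20.4 CPM in WT mice (log2 fold change 0.08, SE 0.13, 95% interval -0.21 to 0.37, edgeR adjusted p = 0.885). The groups overlapped in all 3 genes. Per kb of gene model, Tfe3 made up 56.5 ± 2.05% of the family in KO mice and 56.0 ± 1.60% in WT mice, and Tfeb 12.7 ± 2.31% in KO mice and 13.9 ± 1.5% in WT mice (SD, n = 3 each).

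These factors bind the CLEAR motif, which holds the palindrome CACGTG, so a match counts for both strands. Promoter sequences of RefSeq (GRCm38.p6), 250 bases before to 50 bases after each start, matched 29 of the 35 genes in 36 windows, and Atg12, Atg16l1, Becn1, Map1lc3a, Pik3c3 and Rb1cc1 had none. The longer form TCACGTGA occurred in 1 of the 36 windows, or 2.78%, against 0.974% of all 32851 windows, and the shorter CACGTG, which it contains, in 4 windows of Atg3, Atg5, Atg7 and Atg14, or 11.1%, against 7.15% of all windows. The stretches around the motifs that lie before a start are shown, 5′ to 3′ on the strand of the gene, to let the sites be compared. Capitals mark CACGTG.
Atg3, chr16:45158733-45158788, + strand: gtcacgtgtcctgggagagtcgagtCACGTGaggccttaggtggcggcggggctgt
Atg5, chr10:44268300-44268338, + strand: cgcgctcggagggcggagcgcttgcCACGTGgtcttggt
Atg7, chr6:114670939-114670994, + strand: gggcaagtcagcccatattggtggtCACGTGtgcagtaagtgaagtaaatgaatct
The motif of Atg3 shown in capitals is the longer form, with 65 bases between CACGTG and the start, and a second CACGTG stands before it in the same stretch. Between motif and start lie 8 bases in Atg5 and 126 in Atg7, where the start is one inside the gene model of the table (114643097 to 114860614). Log2 fold changes of the 4 genes with a motif were 0.09 (Atg3), -0.02 (Atg5), -0.19 (Atg7) and 0.07 (Atg14). A match is a description of these letters and says nothing of binding.

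Levels per length, in CPM per kb of gene model, spanned 169-fold over the 35 genes. Gabarapl1 was highest at 226 ± 9.44 CPM per kb (SD over the 6 libraries), followed by Sqstm1 at 97.8 ± 5.44, Gabarap at 83.5 ± 5.85, Map1lc3a at 82.0 ± 12.4 and Gabarapl2 at 68.0 ± 3.22 CPM per kb. Atg8 genes and cargo receptors thus took the 8 highest places. The lowest were Atg7 at 4.88 ± 0.536, Pik3r4 at 4.78 ± 0.364, Mitf at 3.04 ± 0.319 and Tfeb at 1.33 ± 0.226 CPM per kb. The order is coarse, since in 27 of 34 pairs of neighbours the ranges over the libraries overlapped. By gene model length, Gabarapl1 stood clear of Sqstm1, and Gabarapl2 of Nbr1. The length used moved some places. With the first-numbered reference transcript, chosen after seeing the data, Map1lc3b stood at 95.3 in place of 32.1 CPM per kb. Becn1 stood at 51.1 in place of 15.4, with a transcript annotated as nonsense-mediated decay and not as protein-coding. Tfe3 stood at 15.9 in place of 5.62, while Atg12 stood at 14.3 in place of 27.3. Among the lowest places, Mitf stood at 9.83, Pik3r4 at 9.81 and Atg7 at 6.85 CPM per kb with that length, and Atg4d, at 5.83 in place of 13.6, was then the next to last. With the first-numbered transcript, Gabarapl2 and Nbr1 stood close together, at 94.3 and 93.1 CPM per kb. Gabarapl1, Sqstm1 and Gabarap held the first 3 places and Tfeb the last with either length.

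**Figure D2:**
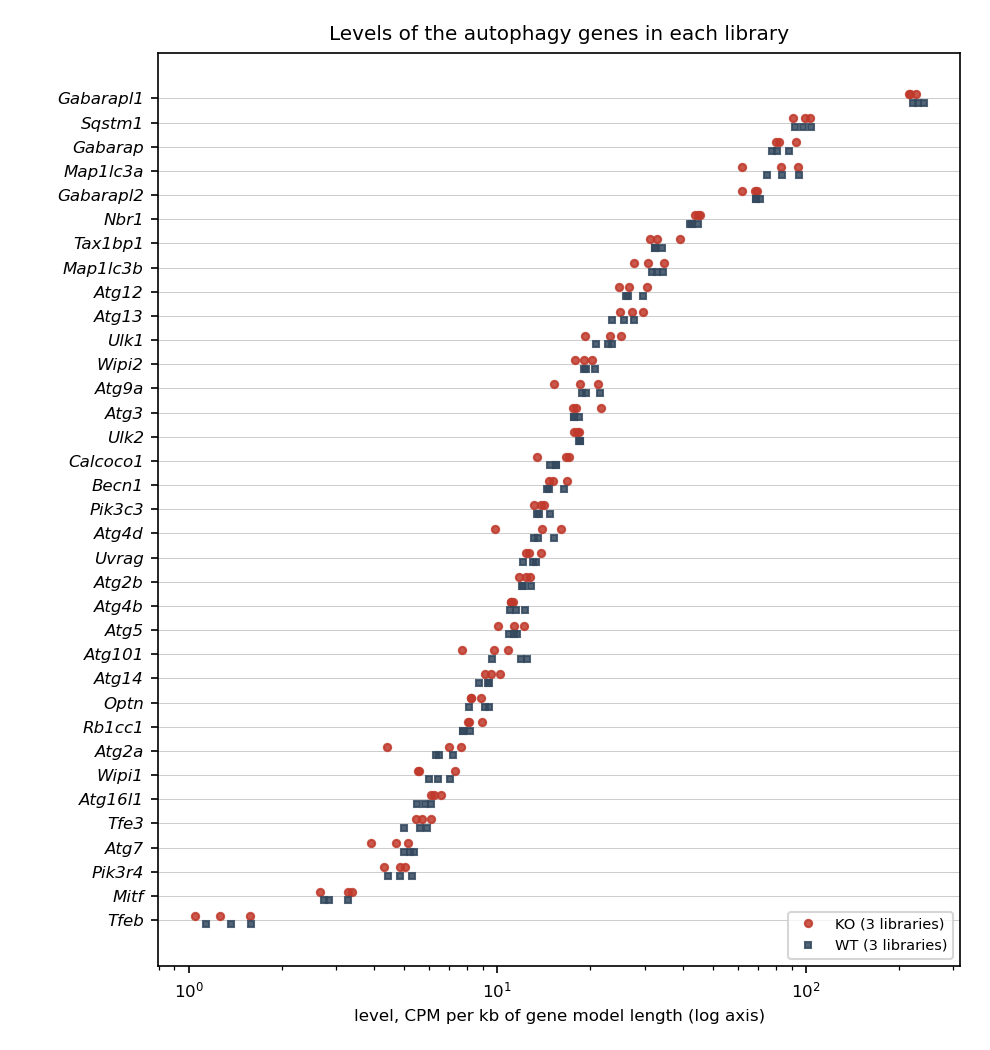
Level of each autophagy gene in each library, in CPM per kb of gene model length on a log axis, with KO mice as circles and WT mice as squares. Genes run from Gabarapl1 (226 CPM per kb) at the top to Tfeb (1.33 CPM per kb) at the bottom, and KO and WT libraries overlap in every row.

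The spread among the KO mice lay mostly in 1 library. The KO female was the lowest of the 6 libraries in 13 of the 35 genes and the highest in 9, against 28.5% and 27.9% of all genes tested, while the WT female was the highest in 13 and the lowest in 1, against 21.0% and 16.3%. The deviation of the KO female from the mean of the other 5 libraries ran from -0.65 to 0.28 in log2 CPM, and it followed the GC content of the transcripts, with a Pearson r of -0.86 across the 35 genes and -0.49 across 16771 tested genes. Genes within a library are not independent replicates, so these are descriptions without a test. Of 18 genes with a GC content of 50.8% to 63.2%, the KO female was below the mean of the others in 16 and the lowest of all in 13. Of 17 genes at 39.1% to 50.7%, it was the lowest in 0 and the highest in 8. KO replicate 3 and the WT female had the opposite relation, with r of 0.74 and 0.68 across the 35 genes.

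**Figure D3:**
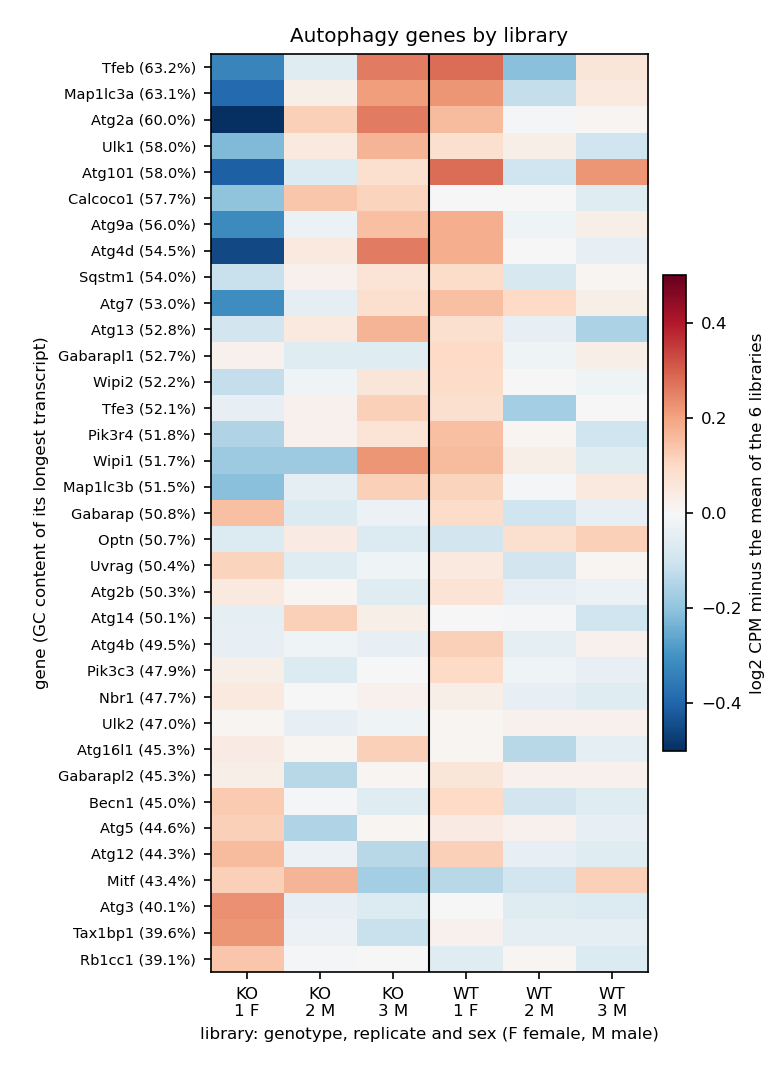
Log2 CPM of each autophagy gene in each library minus the mean of the 6 libraries, with KO libraries left of the line and genes ordered by GC content (values past the ends of the scale take the end colour). The KO female (KO 1 F) is below the mean in most genes of high GC content and above it in most genes of low GC content.

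Each library's trends with GC content and gene length, fitted to its own values over all genes tested, were then removed as offsets. A weaker relation with GC content follows from this by construction. With the offsets the r of the KO female was -0.17 across the 35 genes, and the SD of its deviations was 0.12, against 0.24 without them. The genes farthest below the other libraries, picked here by that deviation, were Atg2a at -0.65, Atg4d at -0.55, Atg101 at -0.49 and Map1lc3a at -0.47, and with the offsets they were at -0.24, -0.37, -0.18 and 0.03. With the offsets edgeR again called 0 of the 35, and 0 had an unadjusted p under 0.05. What sets this library apart was not tested.

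**Figure D4:**
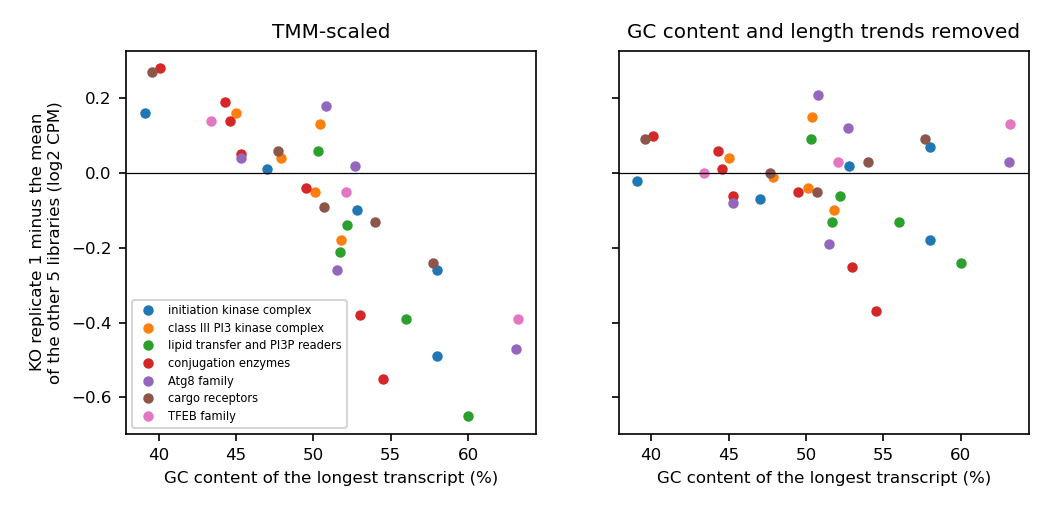
Deviation of the KO female's library from the mean of the other 5, in log2 CPM, against the GC content of each autophagy gene's longest transcript, with TMM scaling (left) and after removal of each library's GC content and length trends (right). The downward slope on the left (r of -0.86) is nearly flat on the right (r of -0.17), where the trend was removed by construction.

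Because this library is also the only female KO mouse, it weighs on any comparison of the sexes. A term for the difference between the sexes in the genotype effect, added after seeing the data, had an unadjusted p under 0.05 for 14 of the 35 genes in edgeR, all 14 with a lower KO over WT ratio in the female pair than in the males. The share over all genes tested was 18.8%. None of the 35 passed after adjustment, and the smallest adjusted p was 0.0844, for Atg2a and Map1lc3a. With the GC content and length offsets the count was 6 of the 35, against 8.79% of all genes, with a smallest adjusted p of 0.267. The term rests on 1 female of each genotype, so sex and library cannot be told apart.

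Other genes of the pathway did not pass the test either. Of 70 further genes listed for autophagy machinery, organelle receptors and nutrient control, 67 were tested. Rubcn was not matched by name, and Calcoco2 and Tfec, with at most 8 and 1 counts in a library, were below the filter. At an adjusted p under 0.05, edgeR called 0 higher and 0 lower (0.283% of all genes), DESeq2 0 (1.37%) and limma-voom 0 (0.301%). In edgeR 2 of the 67 had an unadjusted p under 0.05, against 8.96% of all genes. The median log2 fold change was 0.00, with 36 above 0 and 31 below.

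Among 24 genes of the further machinery (median log2 fold change 0.01), the smallest p-values belonged to Atg16l2, a paralog of Atg16l1, Ulk3, a kinase of the ULK family, and Wdfy3, a large adaptor for aggregates. Atg16l2 was at 20.4, 22.7 and 23.0 CPM in KO mice, against 19.2, 15.2 and 18.9 CPM in WT mice, so that all 3 KO mice lay above the WT mice (log2 fold change 0.31, SE 0.12, edgeR adjusted p = 0.5). Ulk3 was at 0.19 (SE 0.10, edgeR adjusted p = 0.650) and Wdfy3 at 0.11 (SE 0.07, edgeR adjusted p = 0.719). Among 14 organelle receptors (median 0.02), these were Phb2, an inner mitochondrial membrane receptor, at -0.14 (SE 0.11, edgeR adjusted p = 0.773), Pink1, the kinase that marks damaged mitochondria, at -0.12 (SE 0.10, 0.784), and Rtn3, a receptor for tubules of the endoplasmic reticulum, at 0.08 (SE 0.07, 0.797).

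Among 29 genes of mTORC1, AMPK and TFEB control (median -0.01), Zkscan3, a repressor of autophagy genes in cultured cells, was at 68.5, 60.9 and 49.3 CPM in KO mice, against 46.7, 47.5 and 50.9 CPM in WT mice. The value of KO replicate 3 lay within the WT range, so the groups overlapped (log2 fold change 0.29, SE 0.11, edgeR adjusted p = 0.498). Mtor, the kinase gene of the complex, was at 129, 142 and 140 CPM in KO mice, against 156, 152 and 146 CPM in WT mice, with all 3 KO mice below the WT mice (log2 fold change -0.14, SE 0.07, edgeR adjusted p = 0.615). Mlst8, which encodes a subunit of the same complex, was at 49.2, 58.1 and 64.5 CPM in KO mice, against 67.1, 65.2 and 63.8 CPM in WT mice (log2 fold change -0.20, SE 0.10, edgeR adjusted p = 0.622). Atg16l2 and Mtor were the only 2 of the 67 in which the groups did not overlap, against 14.1% of all genes tested.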

How the data were processed

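Cerebellar RNA of 6 mice was analysed, 1 library per mouse. The authors deposited raw read counts per gene, with the length and coordinates of each gene. The submitters' processing notes name STAR and the mm10 build, and the sources used here do not give the counting tool, the strand setting or the annotation release. The counts of the 37 mitochondrial genes were not examined.

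Genes were tested with edgeR 4.0.16 under R 4.3.3 (filterByExpr with a minimum count of 10 and a minimum total of 15, TMM, sex and genotype as terms, robust quasi-likelihood fit, Benjamini-Hochberg over all 16934 genes tested, threshold 0.05). Alternatives used DESeq2 1.42.0, limma-voom (limma 3.58.1), other scaling, filters and samples, and loess offsets (span 0.5) for GC content and length. Counts of all 16934 genes were simulated for KO against WT in 3 runs, with 200 changed genes per run. Changed genes had a mean of at least 50 counts, and no sex effect or GC content trend was built in. The spread between simulated libraries followed each gene's level alone, without the differences between genes of the same level. The rates in the simulation may therefore not carry over to the real counts. There edgeR found 66.0% of changes of 1.5-fold and 95.7% of those of 2-fold, and 3.19% of its calls were false.

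Full values are given for the Atg8 and TFEB families, Sqstm1 and, in each other role, the gene with the highest level per kb and the one with the smallest p. Pathway genes named are the 3 with the smallest p of each list. The members, lists and rules were chosen with earlier results of these data known. Replicate numbers follow the order of deposit.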

Additional observations from a re-analysis of the deposited data

How the results depend on the processing

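Over 15 alternatives in the fold change, 0 of 525 values of the 35 genes passed (smallest adjusted p 0.343) and the median log2 fold change ran from -0.03 to 0.02. At an unadjusted p under 0.05 the count was 0 to 2, with Atg13 and Atg2a higher in males only, where Atg13 was at 0.20 (edgeR adjusted p = 0.381), and Atg101 lower without KO replicate 3 or WT replicate 2. Over all genes that p was reached by 1602 of 17057 in males only, 2476 of 17228 without KO replicate 3 and 1292 of 17188 without WT replicate 2. Ulk1 and Atg2b, both at 0.00 with all 6 libraries, are not counted among turned directions, and Ulk1 was at 0.14 in males only and 0.08 with GC content and length offsets. In males only the direction turned for Uvrag (-0.01), Pik3r4 (0.08), Atg2a (0.18), Atg9a (0.05), Wipi1 (0.04), Wipi2 (0.02), Atg4d (0.17), Map1lc3a (0.15), Map1lc3b (0.01), Sqstm1 (0.08), Tax1bp1 (-0.03), Tfeb (0.17) and Mitf (-0.02). With GC content and length offsets it turned for Becn1 (-0.01), Map1lc3a (0.02), Sqstm1 (0.03), Tax1bp1 (-0.02) and Tfeb (0.05). Leaving out 1 library at a time gave -0.08 to 0.14 for Ulk1, -0.02 to 0.03 for Atg2b, -0.01 to 0.05 for Uvrag, -0.11 to 0.09 for Pik3r4, -0.21 to 0.19 for Atg2a, -0.21 to 0.06 for Atg9a, -0.22 to 0.05 for Wipi1, -0.08 to 0.03 for Wipi2, -0.21 to 0.18 for Atg4d, -0.07 to 0.05 for Atg5, -0.04 to 0.05 for Atg12, -0.22 to 0.16 for Map1lc3a, -0.16 to 0.02 for Map1lc3b, -0.06 to 0.09 for Sqstm1, -0.02 to 0.16 for Calcoco1, -0.03 to 0.12 for Tax1bp1, -0.23 to 0.17 for Tfeb, -0.01 to 0.15 for Tfe3 and -0.02 to 0.22 for Mitf. The count of changed genes, 48 over all genes tested, was 75 with RLE size factors, 199 with no filter, 76 with a mean of at least 1 CPM, 232 in DESeq2, 111 in males only, 271 with the offsets and 109 at an adjusted p under 0.10, and the cause was not tested. With 1 library left out it ran from 1 to 156 (156, 117 and 16 for KO replicates 3, 1 and 2, 93 for WT replicate 1, and 1 for WT replicate 2 or 3). Over raw reads, without lengths, the Atg8 shares in KO and WT mice were 9.13% and 9.30% for Map1lc3a, 22.7% and 23.3% for Map1lc3b, 15.2% and 14.2% for Gabarap, 37.9% and 38.1% for Gabarapl1 and 15.1% and 15.1% for Gabarapl2. With the first-numbered transcript, chosen after seeing the data, they were 14.1% and 14.4%, 15.4% and 15.8%, 19.3% and 18.1%, 35.7% and 36.1%, and 15.4% and 15.6% in the same order. The shorter motif gave 4 windows in place of 1. No paired analysis was possible because replicate numbers follow the order of deposit and pair no mice. The titles of 3 mice, 2 KO and 1 WT, share a prefix that the labels do not explain, and it was not used. Fits in males only and without either female rest on the same males. With 3 mice a group, a two-sided exact permutation test cannot go below p = 0.1. The 95% intervals reached a median of 0.19 either side in log2 over the 35 genes, without adjustment over all genes tested. Small differences could therefore go unseen, and the size that could be told from 0 varied between genes.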
